A study of Mus musculus with 21 samples.

Results

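The genes described here are the assembly factors of the large (60S) ribosomal subunit, the proteins that fold, trim, remodel and export the precursor of that subunit without staying in the finished ribosome. They were chosen by symbol, as 47 listed genes, and all 47 were among the 20900 genes of the deposited table. The list was drawn up with earlier results of these data known, so the counts below are a description. All 47 also passed the filter on low values, which asked for a log2 value above 0 in at least 3 libraries and kept 14666 genes.

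The data were RNA-seq of poly(A) RNA from E14 cells, a mouse embryonic stem cell line of the 129 strain that grows with serum and leukaemia inhibitory factor. Cells were plated 1 day before treatment and then received medium with 1 µM BMH-21 or 1 µM CX-5461 for 2, 4 or 8 h, or were taken at 0 h as the control. Each of the 7 groups had 3 replicate libraries, 21 in all, and both inhibitors were compared with the same 0 h control. No control taken at 2, 4 or 8 h was analysed here, so time in the new medium and treatment cannot be told apart. All libraries came from 1 cell line. The labels do not say whether replicates came from separate cultures, so p-values measure the spread between these libraries, which may be technical.

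BMH-21 and CX-5461 block transcription by RNA polymerase I, which makes the precursor of the 18S, 5.8S and 28S ribosomal RNAs. The 60S subunit starts in the nucleolus, where early factors bind the 5.8S and 28S parts of the precursor together with ribosomal proteins, and where the 5S RNA joins with Rpl5 and Rpl11. Helicases, methyltransferases and GTPases then reshape the particle, nucleases cut out the second internal transcribed spacer (ITS2), AAA ATPases strip factors off, and export adaptors take the particle to the cytoplasm. The genes of these factors are known in growing cells as a co-regulated set and as targets of the transcription factor MYC, which with its partner Max binds the DNA motif CACGTG (the E-box). When the pathway fails, free 5S particles are known to bind Mdm2 and to stabilise p53.

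Promoter sequences were examined because the factors share this link to MYC. RefSeq windows of 300 bases, from 250 before to 50 after the annotated start (GRCm38.p6), were at hand for 40 of the 47 factors. The motif CACGTG, which reads the same on both strands, was found in a window of 9 of those 40 factors (22.5%). These were Pes1, Rpf2, Nop2, Mdn1, Nle1, Tex10, Pelp1, Nmd3 and Sdad1. Counted by gene in the same way, the share was 8.09% of 27025 gene symbols and 11.3% of the 11000 tested genes with a window. Counted by window, it was 7.15% of all 32851 windows of that length. With the motif wholly before the start, the share was 4 of 40 (10%), against 9.63% of tested genes. The 4 were Nop2, Nmd3, Pelp1 and Rpf2. For Rpf2 this depends on the annotated start, as the motif begins 26 bases before the start in 1 window and 35 after it in another. Bop1, Rpf1, Rrs1, Mak16, Pak1ip1, Gnl2 and Gnl3l had no window. The next lines show 3 of the 4 stretches with the motif wholly before the start, and stretches of the promoters of Ddx56 and Senp3, the factors at the 2 ends of the response to BMH-21. All are 5′ to 3′ on the gene's strand, and capitals mark CACGTG.
Nop2, chr6:125131796-125131855, plus strand: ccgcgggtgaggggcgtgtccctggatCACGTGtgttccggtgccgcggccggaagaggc
Nmd3, chr3:69721914-69721973, plus strand: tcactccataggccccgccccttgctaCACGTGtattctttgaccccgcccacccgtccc
Pelp1, chr11:70410228-70410281, minus strand: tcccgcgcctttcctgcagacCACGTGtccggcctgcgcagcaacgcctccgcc
Ddx56, chr11:6267773-6267872, minus strand: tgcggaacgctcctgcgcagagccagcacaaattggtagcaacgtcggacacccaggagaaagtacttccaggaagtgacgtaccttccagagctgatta
Senp3, chr11:69682085-69682184, minus strand: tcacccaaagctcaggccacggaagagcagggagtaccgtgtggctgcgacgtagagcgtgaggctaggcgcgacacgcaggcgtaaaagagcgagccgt
The stretches of Ddx56 and Senp3 hold no CACGTG. At 8 h of BMH-21 the median log2 change, with libraries centred, was -0.92 over the 9 factors with the motif and -0.82 over the 31 without it.

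Depth and scaling touch every value below. The recovered reads came to between 46604397 and 62812641 per library. Levels are given as log2 values on the deposited scale, in reads relative to a library size that the authors had multiplied by a factor of 0.832 to 1.375. This scaling moves all genes of a library together, so each change is also given with libraries centred, meaning that every library's median over the tested genes was made equal. At 2, 4 and 8 h the BMH-21 changes as deposited exceeded the centred ones by -0.08, -0.15 and -0.21, and the CX-5461 changes did so by -0.15, -0.16 and 0.22. For BMH-21 minus CX-5461 at 8 h this offset was -0.43. The stem cell markers fixed for the check were present, 10 of 10 being tested, with a summed log2 level of 12.6 to 12.8 in control, 12.3 to 12.5, 11.8 to 12.0 and 11.6 to 11.7 at 2, 4 and 8 h of BMH-21, and 12.2 to 12.4, 11.8 to 12.1 and 12.5 to 12.6 at 2, 4 and 8 h of CX-5461. Of 8 fibroblast markers 4 passed the filter (Col3a1, Dcn, Lum and Postn did not). Summed over all 8, their level was 5.60 to 5.91 in control and higher, 5.94 to 6.12, after 4 h of BMH-21. It was 5.63 to 5.81 after 8 h of BMH-21 and 5.81 to 5.86 after 8 h of CX-5461. Among the 4 tested, changes at 8 h of BMH-21 ran from -1.41 to 1.86. Of 8 markers of differentiated cells 7 passed. Summed over all 8, they were at 4.17 to 4.59 in control and 4.40 to 4.48 after 8 h of CX-5461. After 4 and 8 h of BMH-21 they were at 3.20 to 3.63 and 3.51 to 3.79. The stem cell markers and the factors below both fell, but their centred medians differed in course from 4 to 8 h. Under BMH-21 the marker median stayed near its 4 h value (-1.20, then -1.19). That of the factors went from -0.26 to -0.82. Under CX-5461 the marker median eased from -0.67 to -0.54, while the factor median went down from -0.36 to -0.53. As deposited both medians eased under CX-5461, from -0.82 to -0.33 and from -0.52 to -0.31. The part of the markers' fall in the changes below was not tested. In these bulk samples fewer cells of a type and less RNA per cell cannot be told apart.

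In untreated cells the 47 factors spanned a wide range of levels. Per kilobase of exons, the highest log2 levels were those of Rsl1d1, at 7.78 ± 0.15 (SD, n = 3), Pes1, at 7.55 ± 0.09, and Ftsj3, at 7.41 ± 0.11. The lowest were those of Nvl, at 3.60 ± 0.07, Wdr12, at 3.71 ± 0.15, and Ddx51, at 3.96 ± 0.05. Bop1, which works in 1 complex with Pes1 and Wdr12, lay between them at 6.48 ± 0.10. Exon length was the union over all annotated transcripts, 13.5 kb for Nvl and 12.0 kb for Wdr12 against 3.02 kb for Pes1 and 2.96 kb for Bop1. The order therefore depends on the annotation. Without division by length the control means were 9.15 for Pes1, 8.05 for Bop1 and 7.29 for Wdr12.

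With 8 h of BMH-21 nearly every factor was lower than in control. In the limma fit with Benjamini-Hochberg adjustment over all 14666 genes, 46 of 47 fell and 1, Ddx56, rose, where 56.9% of all tested genes fell and 24.5% rose. With libraries centred 44 fell (51.3% of all genes), Ddx56 rose (33.3% of all genes), and Brix1 and Mak16 passed in neither direction. All 3 treated libraries lay below all 3 control libraries for 46 factors, which held for 57.1% of tested genes, and above them for Ddx56, as for 24.1%. The median change was -1.03 over the factors and -0.40 over all tested genes, or -0.82 and -0.19 with libraries centred. The changes ran from -1.85 for Senp3 to 0.49 for Ddx56 on the deposited scale, and Bop1, Wdr12, Ppan, Ddx18, Rrp1b, Rsl1d1, Noc2l, Nop2, Gnl3 and Nmd3 were among those that fell.

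**Figure D1:**
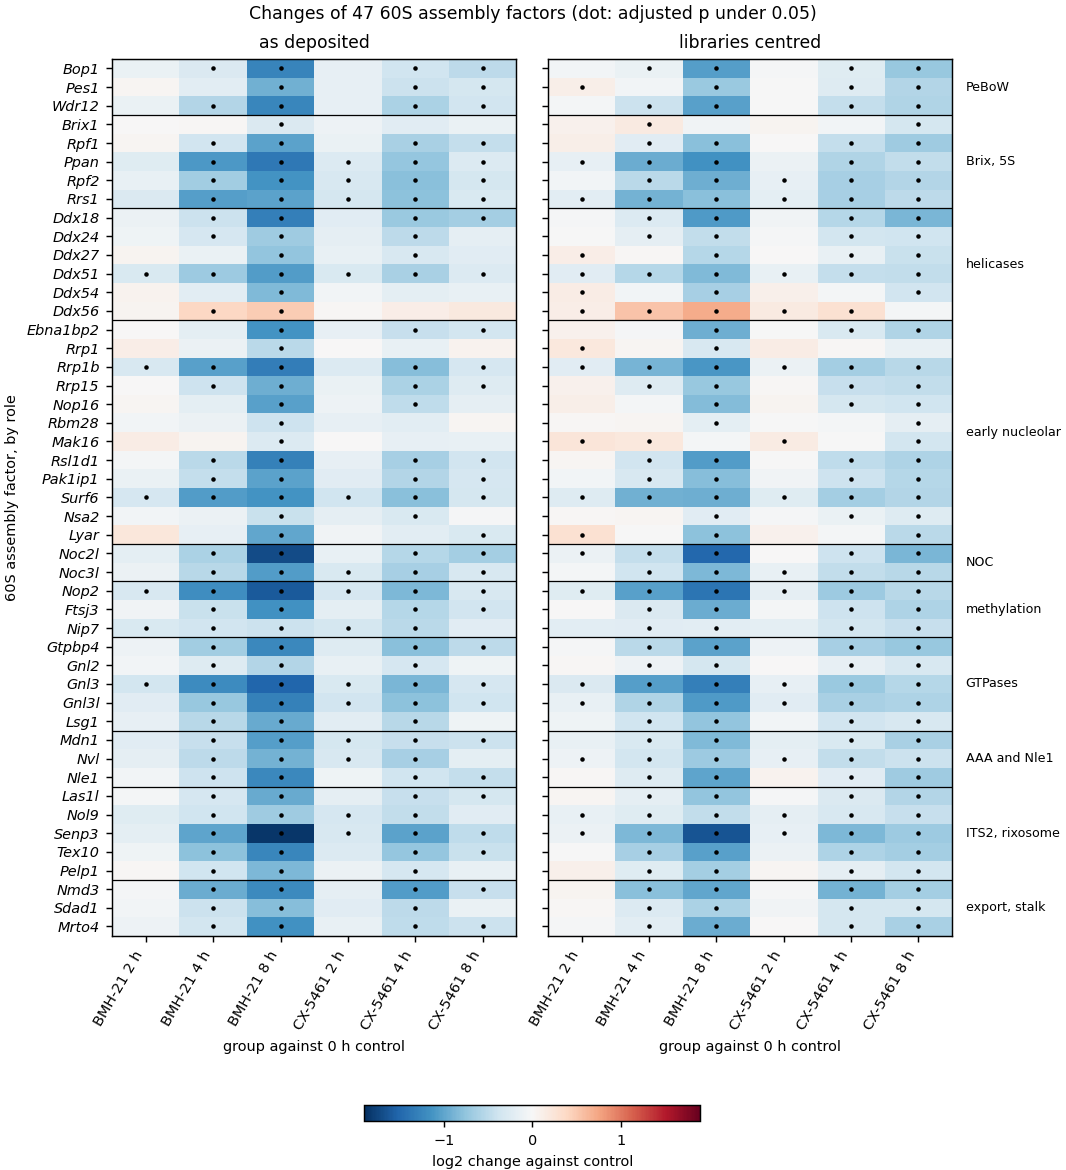
Log2 change of the 47 factors against the 0 h control (columns, inhibitor and hours), as deposited on the left and with libraries centred on the right, in rows grouped by role. Dots mark an adjusted p under 0.05 (limma). The BMH-21 8 h column is blue in every row but Ddx56 as deposited, where 46 factors fell, and the CX-5461 8 h column is darker after centring (45 fell) than as deposited (30 fell).

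At 4 h the fall was already seen in most factors with both inhibitors. BMH-21 lowered 35 of 47 and raised Ddx56, where 44.9% of all genes fell and 22.1% rose. After centring 35 fell (41.5% of all genes) and Brix1, Ddx56 and Mak16 rose (32.2% of all genes). CX-5461 lowered 40 of 47 and raised none, where 51.2% of genes fell and 19.8% rose. No factor was higher with CX-5461 at 4 h at an unadjusted p under 0.05 either. With libraries centred 40 fell (45.7% of genes) and Ddx56 rose (28.5% of genes). The factors' median was -0.41 for the former and -0.52 for the latter (all genes, -0.21 and -0.28), or -0.26 and -0.36 with libraries centred (all genes, -0.06 and -0.12). All 3 libraries of BMH-21 at 4 h lay below all controls for 36 factors (42.0% of all genes), and those of CX-5461 for 39 (47.6%). The comparisons share their control libraries, so the values are given side by side.

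By 8 h of CX-5461 30 factors were lower than control on the deposited scale, where 14.3% of tested genes fell and 35.1% rose. None rose, also at an unadjusted p under 0.05. After centring 45 of 47 fell, where 44.7% of genes fell and 29.3% rose, and Ddx56 and Rrp1 passed in neither direction. The largest fall was that of Ddx18, at -0.65 (-0.87 centred). Their median was -0.31 against 0.11 for all genes as deposited, and -0.53 against -0.11 with libraries centred. Among the factors 35 had all 3 treated libraries below all 3 control libraries, as did 19.5% of all genes, while 2, Ddx56 and Rrp1, had all 3 above them, as did 42.8%.

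**Figure D2:**
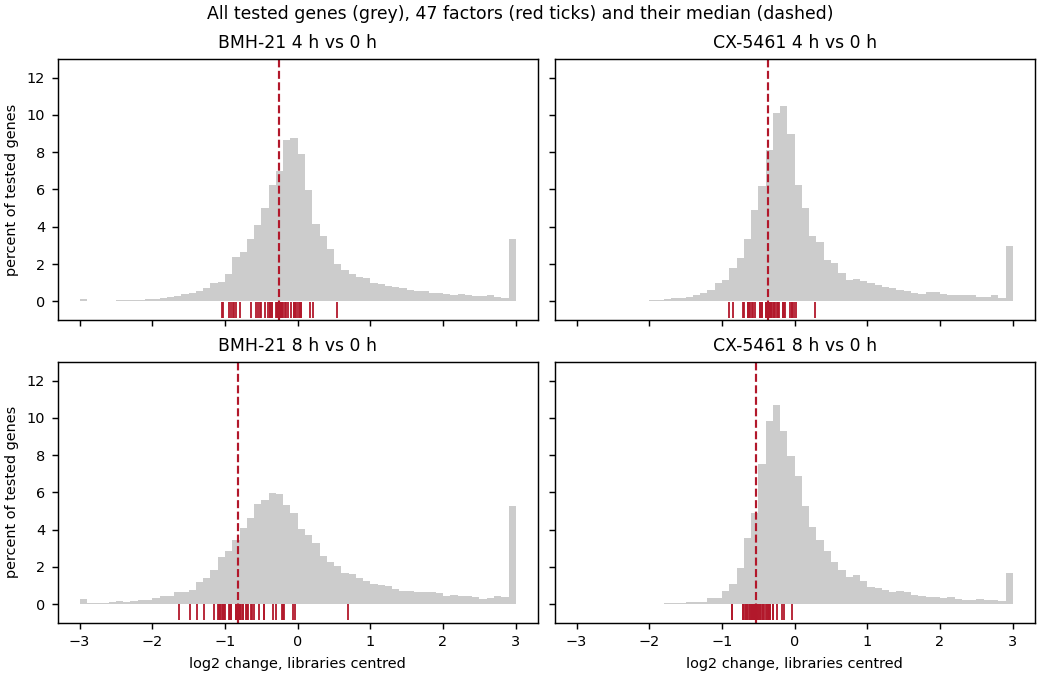
Share of all 14666 tested genes (grey bars, percent per bin of 0.1) by log2 change against control with libraries centred, for each inhibitor at 4 and 8 h. The outermost bins hold all genes beyond them, red ticks are the 47 factors and the dashed line is their median, which lies at -0.26, -0.36, -0.82 and -0.53 for BMH-21 4 h, CX-5461 4 h, BMH-21 8 h and CX-5461 8 h.

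At 2 h fewer factors passed the threshold than at the later times. With BMH-21 the count depended on the scaling, at 6 as deposited and 19 with libraries centred, and with CX-5461 it was 14 under both. BMH-21 lowered 6, Ddx51, Rrp1b, Surf6, Nop2, Nip7 and Gnl3, where 11.2% of all genes fell, and raised none (8.48% of all genes rose). None was higher at an unadjusted p under 0.05 either. This count was 0 without BMH-21 2 h replicate 1, without control replicate 1 or without control replicate 2, and 2 without BMH-21 2 h replicate 3. After centring 12 fell and 7 rose, among them Lyar, Mak16 and Pes1, where 17.5% of genes fell and 18.6% rose. CX-5461 lowered 14 (20.5% of genes fell) and raised 0 (7.45% of genes rose), with 0 higher at an unadjusted p under 0.05. That count was 2 without control replicate 1 or without CX-5461 2 h replicate 3, and 3 without control replicate 2 or without CX-5461 2 h replicate 2. With libraries centred 12 fell and Ddx56 and Mak16 rose (17.8% and 15.8% of genes).

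The PeBoW complex, made of Pes1, Bop1 and Wdr12, is needed for ITS2 processing and 28S maturation. All 3 genes fell after 8 h of BMH-21, by a median of -1.25 (-1.03 centred), and all 3 fell after 8 h of CX-5461, by a median of -0.36 (-0.58 centred). Of all tested genes 56.9% fell after 8 h of BMH-21 (51.3% centred) and 14.3% after 8 h of CX-5461 (44.7% centred). The all-gene medians were -0.40 and 0.11, or -0.19 and -0.11 centred. They hold for every role group below, and the counts of these small groups were not tested against them. Bop1 (chr15:76452989-76477277, minus strand in the GENCODE M21 annotation of mm10, as for the genes that follow) read 8.08, 8.12 and 7.94 in the control libraries, and under BMH-21 7.80, 8.04 and 7.91 at 2 h, 7.89, 7.66 and 7.75 at 4 h and 6.86, 6.68 and 6.85 at 8 h. With CX-5461 it read 8.02, 7.81 and 7.82 at 2 h, 7.61, 7.78 and 7.61 at 4 h and 7.58, 7.51 and 7.56 at 8 h. The BMH-21 8 h libraries stood below all others without overlap, and the CX-5461 8 h libraries lay below every control library too. Bop1 was 2.39-fold lower after 8 h of BMH-21 (log2 -1.25, SE 0.10, limma adjusted p = 4e-22) and 1.41-fold lower after 8 h of CX-5461 (log2 -0.50, adjusted p = 1.7e-05). Its change at 4 h of BMH-21 was small (-0.28, adjusted p = 0.013) and no longer passed without BMH-21 4 h replicate 2 (-0.23, adjusted p = 0.077) or without control replicate 2 (-0.24, adjusted p = 0.067). Of the Bop1 change at 8 h of BMH-21, 12.5% had been reached by 4 h with libraries centred.

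Brix1, Rpf1, Ppan and Rpf2 share the Brix domain, which binds ribosomal RNA, and Rpf2 with Rrs1 brings the 5S particle into the precursor. All 5 fell after 8 h of BMH-21 as deposited (56.9% of all genes), and 4 of 5, all but Brix1, with libraries centred (51.3%). With 8 h of CX-5461 4 fell as deposited (14.3% of all genes) and 5 with libraries centred (44.7%). Ppan (chr9:20888175-20892178, plus strand) was at 7.86, 7.81 and 7.89 in control, at 7.58, 7.69 and 7.59 after 2 h of BMH-21, at 6.77, 6.71 and 6.81 after 4 h and at 6.60, 6.37 and 6.50 after 8 h. Under CX-5461 it was at 7.79, 7.52 and 7.47 after 2 h, at 7.01, 7.29 and 7.06 after 4 h and at 7.66, 7.54 and 7.58 after 8 h. The BMH-21 libraries of 4 h were already below all libraries of control and of 2 h, while in the CX-5461 series the 4 h libraries were the lowest and those of 8 h stood between them and the control. The change at 8 h was -1.36 with BMH-21 (SE 0.10, adjusted p = 2.8e-24) and -0.26 with CX-5461 (adjusted p = 0.031). The CX-5461 change no longer passed in 4 of 6 fits that left out 1 library: without control replicate 1 (-0.25, adjusted p = 0.078), control replicate 3 (-0.24, adjusted p = 0.070), CX-5461 8 h replicate 2 (-0.23, adjusted p = 0.11) or CX-5461 8 h replicate 3 (-0.25, adjusted p = 0.084). With libraries centred it was -0.47 (adjusted p = 1.6e-07). The annotation places snoRNA genes inside Ppan and Gnl3, and these 2 of 47 factors (4.26%) compare with 1.51% of 13537 tested protein-coding genes.

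Brix1 (chr15:10474779-10485947, minus strand) moved least in this group. It stood at 7.92, 7.88 and 7.61 in control, 7.74, 7.91 and 7.79 at 2 h, 7.98, 7.72 and 7.76 at 4 h and 7.53, 7.46 and 7.60 at 8 h of BMH-21. The CX-5461 libraries stood at 7.83, 7.57 and 7.71 at 2 h, 7.42, 7.79 and 7.54 at 4 h and 7.73, 7.64 and 7.66 at 8 h. Only the BMH-21 8 h libraries lay below every control, and by a narrow margin. Their change of -0.27 (adjusted p = 0.014) did not pass without control replicate 1 (-0.21, adjusted p = 0.095), without control replicate 2 (-0.24, adjusted p = 0.064) or with libraries centred (-0.06, adjusted p = 0.18). Without control replicate 3 or CX-5461 4 h replicate 2 the change at 4 h of CX-5461, -0.22 with all libraries (adjusted p = 0.057), became -0.31 (adjusted p = 0.011) and -0.32 (adjusted p = 0.0069).

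DEAD-box helicases unwind RNA duplexes in the particle. Of the 6 in the list, Ddx18, Ddx24, Ddx27, Ddx51 and Ddx54 fell after 8 h of BMH-21 and Ddx56 rose, under both scalings. Among all genes 56.9% fell and 24.5% rose (51.3% and 33.3% centred). At 8 h of CX-5461 2 fell as deposited (Ddx18 and Ddx51) and 5, all but Ddx56, with libraries centred, where 14.3% and 44.7% of all genes fell. Ddx18 (chr1:121553835-121567989, minus strand), the counterpart of yeast Has1, read 8.71, 8.78 and 8.44 in control and 8.47, 8.65 and 8.50 at 2 h, 8.37, 8.12 and 8.22 at 4 h and 7.42, 7.28 and 7.36 at 8 h of BMH-21. Its CX-5461 libraries read 8.51, 8.30 and 8.47 at 2 h, 7.84, 8.11 and 7.89 at 4 h and 8.04, 7.99 and 7.95 at 8 h. The 8 h libraries of either inhibitor lay below all controls, with those of BMH-21 lower again than those of CX-5461. Ddx18 fell 2.45-fold with BMH-21 (log2 -1.29, SE 0.10, adjusted p = 6.1e-23) and 1.57-fold with CX-5461 (log2 -0.65, adjusted p = 2.8e-08).

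Ddx56 (chr11:6258919-6267772, minus strand), the counterpart of the yeast helicase Dbp9, went the other way. Control libraries held 8.04, 8.08 and 7.83, and the BMH-21 libraries held 7.96, 8.13 and 8.03 at 2 h, 8.49, 8.27 and 8.38 at 4 h and 8.43, 8.45 and 8.53 at 8 h. The CX-5461 libraries held 8.14, 7.90 and 7.98 at 2 h, 8.04, 8.23 and 8.05 at 4 h and 8.19, 8.17 and 8.15 at 8 h. All 6 libraries of BMH-21 at 4 and 8 h were above the highest control. Ddx56 rose 1.32-fold at 4 h (log2 0.40, SE 0.10, adjusted p = 0.00036) and 1.40-fold at 8 h (log2 0.49, SE 0.10, adjusted p = 8.3e-06), or by 0.54 and 0.70 with libraries centred. With CX-5461 at 8 h its change was 0.18 as deposited (95% interval -0.02 to 0.38) and -0.03 with libraries centred, and passed in neither. BMH-21 was above CX-5461 at 8 h by 0.30 (adjusted p = 0.005; centred 0.73).

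The largest role group holds 12 early nucleolar factors, which bind the precursor RNA soon after transcription. After 8 h of BMH-21 12 fell as deposited (56.9% of all genes) and 11, all but Mak16, with libraries centred (51.3%). The medians were -1.003 and -0.79. After 8 h of CX-5461 7 fell as deposited (14.3% of all genes) and 11 with libraries centred (44.7%), with medians of -0.27 and -0.49. Rrp1b (chr17:32036100-32062865, plus strand), a nucleolar protein that also serves as a cofactor of E2F1, was measured at 8.11, 8.18 and 8.01 in control, 7.63, 7.94 and 7.83 at 2 h, 7.24, 6.99 and 6.99 at 4 h and 6.93, 6.55 and 6.88 at 8 h of BMH-21. In CX-5461 it was measured at 7.96, 7.77 and 7.78 at 2 h, 7.15, 7.47 and 7.26 at 4 h and 7.82, 7.77 and 7.75 at 8 h. The fall with BMH-21 was mostly in place at 4 h (79.6% of the 8 h value, centred), and with CX-5461 the 4 h libraries were below those of 8 h. At 8 h the change was -1.31 with BMH-21 (SE 0.11, adjusted p = 1.9e-22) and -0.32 with CX-5461 (adjusted p = 0.0088). Without control replicate 2 the latter was -0.28 (adjusted p = 0.051).

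Mak16 (chr8:31159463-31168764, minus strand), which binds the early precursor with Rpf1, changed least in the early group. Control values were 7.69, 7.74 and 7.55, and the values were 7.69, 7.91 and 7.82 at 2 h, 7.81, 7.65 and 7.68 at 4 h and 7.46, 7.28 and 7.49 at 8 h with BMH-21. With CX-5461 they were 7.86, 7.54 and 7.61 at 2 h, 7.37, 7.69 and 7.45 at 4 h and 7.58, 7.52 and 7.47 at 8 h. The BMH-21 libraries overlapped the control at 2 and 4 h and lay just below it at 8 h. The change at 8 h of BMH-21, -0.25 (adjusted p = 0.021), did not pass with libraries centred (-0.04, adjusted p = 0.28), and with median-ratio size factors it passed as a rise (0.10, adjusted p = 0.011). It also failed without BMH-21 8 h replicate 2 (-0.19, adjusted p = 0.11), control replicate 1 (-0.24, adjusted p = 0.060) or control replicate 2 (-0.21, adjusted p = 0.093). Without CX-5461 4 h replicate 2 the change at 4 h of CX-5461, -0.16 with all libraries, passed at -0.25 (adjusted p = 0.032), and with median-ratio factors it passed upward (0.089, adjusted p = 0.030).

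Noc2l and Noc3l form nucleolar complexes that carry the precursor towards the nucleoplasm, and Noc2l is also known as an inhibitor of histone acetyltransferases that binds p53. Both fell after 8 h of each inhibitor under both scalings. So did 56.9% of all genes with BMH-21 (51.3% centred) and 14.3% with CX-5461 (44.7% centred). Noc2l (chr4:156236010-156247616, plus strand) had log2 values of 8.14, 8.22 and 7.98 in control, of 7.81, 8.04 and 7.92 after 2 h, 7.66, 7.41 and 7.49 after 4 h and 6.51, 6.30 and 6.44 after 8 h of BMH-21. Those with CX-5461 were 8.09, 7.88 and 7.95 at 2 h, 7.47, 7.71 and 7.52 at 4 h and 7.53, 7.41 and 7.46 at 8 h. All 3 libraries of BMH-21 at 8 h were below every other library. Noc2l fell 3.25-fold with BMH-21 (log2 -1.70, SE 0.10, adjusted p = 1.3e-31; centred -1.49) and 1.57-fold with CX-5461 (log2 -0.65, adjusted p = 4.3e-08; centred -0.86).

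Nop2 methylates a cytosine of 28S RNA, Ftsj3 methylates ribose groups and Nip7 binds the precursor RNA. All 3 fell after 8 h of BMH-21 under both scalings (56.9% of all genes, 51.3% centred). After 8 h of CX-5461 Nop2 and Ftsj3 fell as deposited (14.3% of all genes) and all 3 with libraries centred (44.7%). Nop2 (chr6:125131909-125144753, plus strand), whose promoter stretch is printed above, gave 8.34, 8.36 and 8.26 in control and 7.91, 8.10 and 8.03 at 2 h, 7.20, 7.09 and 7.15 at 4 h and 6.81, 6.60 and 6.77 at 8 h of BMH-21. It gave 8.13, 7.90 and 7.96 at 2 h, 7.34, 7.62 and 7.44 at 4 h and 8.04, 8.00 and 8.00 at 8 h of CX-5461. Every treated library was below every control library. Under BMH-21 the level went on down to 8 h, and under CX-5461 the 8 h libraries lay within the range of those of 2 h. The fall at 8 h was 3.02-fold with BMH-21 (log2 -1.59, adjusted p = 6.4e-30) and 1.24-fold with CX-5461 (log2 -0.31, adjusted p = 0.0079). Between 4 and 8 h Nop2 fell with BMH-21 (-0.42, centred -0.36) and rose with CX-5461 (0.54, centred 0.17), past the threshold each time.

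GTPases of this pathway, Gtpbp4, Gnl2, Gnl3, Gnl3l and Lsg1, mark steps of nuclear maturation and, for Lsg1, the cytoplasmic release of Nmd3. All 5 fell after 8 h of BMH-21 (56.9% of all genes, 51.3% centred). After 8 h of CX-5461 3 (Gtpbp4, Gnl3 and Gnl3l) fell as deposited (14.3% of all genes), or 5 with libraries centred (44.7%). Gnl3 (chr14:31012433-31019152, minus strand), known as nucleostemin and as a stem cell protein that can bind Mdm2, showed 8.61, 8.60 and 8.34 in control, 8.07, 8.27 and 8.16 at 2 h, 7.46, 7.21 and 7.29 at 4 h and 7.10, 6.89 and 7.04 at 8 h of BMH-21. For CX-5461 the values were 8.37, 8.07 and 8.22 at 2 h, 7.50, 7.84 and 7.61 at 4 h and 8.25, 8.18 and 8.16 at 8 h. All BMH-21 libraries lay below all controls from 2 h on. The change grew from -0.36 at 2 h (adjusted p = 0.0074) to -1.20 at 4 h and -1.51 at 8 h (SE 0.10, adjusted p = 2.8e-27). With CX-5461 it was -0.87 at 4 h and -0.32 at 8 h (adjusted p = 0.0066).

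Gnl2 (chr4:125016585-125055380, plus strand), the least changed GTPase, read 7.43, 7.49 and 7.23 in control and 7.25, 7.46 and 7.28 at 2 h, 7.33, 7.05 and 7.04 at 4 h and 6.88, 6.68 and 6.94 at 8 h of BMH-21. With CX-5461 it read 7.42, 7.14 and 7.18 at 2 h, 6.92, 7.26 and 7.03 at 4 h and 7.32, 7.31 and 7.25 at 8 h. The BMH-21 8 h libraries were below all controls and the CX-5461 8 h libraries overlapped them. Its fall of -0.55 after 8 h of BMH-21 passed (adjusted p = 1.9e-06; centred -0.34). The change at 4 h of BMH-21, -0.24 (adjusted p = 0.037), failed without BMH-21 4 h replicate 2 or 3 (-0.20 and -0.19, adjusted p = 0.15 each) and without control replicate 1 or 2 (-0.22 and -0.19, adjusted p = 0.11 and 0.17). At 4 h of CX-5461 the change of -0.32 was -0.26 without control replicate 2 (adjusted p = 0.050) and -0.24 without CX-5461 4 h replicate 1 (adjusted p = 0.064).

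Mdn1 and Nvl are AAA ATPases that pull factors off the particle, and Nle1 is the adaptor on which Mdn1 pulls. All 3 fell after 8 h of BMH-21 (56.9% of all genes, 51.3% centred). Mdn1 and Nle1 fell after 8 h of CX-5461 as deposited (14.3% of all genes) and all 3 with libraries centred (44.7%). Nle1 (chr11:82900768-82908411, minus strand) was found at 7.18, 7.23 and 7.06 in control, at 7.04, 7.18 and 7.08 at 2 h, 6.87, 6.64 and 6.76 at 4 h and 6.06, 5.80 and 5.94 at 8 h of BMH-21 and at 7.23, 6.99 and 7.01 at 2 h, 6.71, 6.89 and 6.75 at 4 h and 6.73, 6.64 and 6.72 at 8 h of CX-5461. Most of its change came between 4 and 8 h of BMH-21, and the 8 h libraries of both inhibitors were below the control. The change at 8 h was -1.22 with BMH-21 (SE 0.11, adjusted p = 8.3e-21) and -0.46 with CX-5461 (adjusted p = 1e-04). For Mdn1 the spread between its own replicates (SD 0.23) exceeded the moderated SD of the fit (0.14), so its p-values may be too small.

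Las1l cuts ITS2 and Nol9 phosphorylates the cut end, and with them sit Pelp1, Tex10 and the SUMO protease Senp3, which frees Pelp1 of SUMO. All 5 fell after 8 h of BMH-21 (56.9% of all genes, 51.3% centred). Las1l, Senp3 and Tex10 fell after 8 h of CX-5461 as deposited (14.3% of all genes), or all 5 with libraries centred (44.7%). Senp3 (chr11:69673115-69682084, minus strand) had the largest fall of the 47. Its log2 values were 9.13, 9.14 and 9.02 in control, 8.77, 9.04 and 8.93 at 2 h, 8.25, 8.04 and 7.99 at 4 h and 7.39, 7.08 and 7.28 at 8 h of BMH-21. With CX-5461 they ran 8.94, 8.72 and 8.73 at 2 h, 7.98, 8.25 and 8.03 at 4 h and 8.67, 8.56 and 8.62 at 8 h. At 4 h the inhibitors overlapped, and at 8 h they were apart by more than 1 log2 unit, with CX-5461 higher at 8 h than at 4 h. Senp3 was 3.60-fold lower after 8 h of BMH-21 (log2 -1.85, SE 0.10, adjusted p = 3.9e-35; 3.11-fold centred) and 1.40-fold lower after 8 h of CX-5461 (log2 -0.48, adjusted p = 3.2e-05). Nol9 (chr4:152039321-152061494, plus strand) moved less, with 8.08, 8.11 and 7.89 in control, then 7.68, 7.90 and 7.83 at 2 h, 7.83, 7.55 and 7.54 at 4 h and 7.44, 7.21 and 7.42 at 8 h of BMH-21 and 7.82, 7.63 and 7.67 at 2 h, 7.46, 7.71 and 7.52 at 4 h and 7.88, 7.74 and 7.80 at 8 h of CX-5461. It fell with BMH-21 at 8 h (-0.67, adjusted p = 5.3e-09). With CX-5461 at 8 h its change was -0.22 (adjusted p = 0.07), -0.29 without control replicate 3 (adjusted p = 0.029) and -0.44 centred (adjusted p = 5e-12).

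Late in the pathway Nmd3 is the adaptor that carries the subunit through the nuclear pore, Sdad1 acts in late nuclear steps and Mrto4 holds the place of the ribosomal stalk. All 3 fell after 8 h of BMH-21 (56.9% of all genes, 51.3% centred). Nmd3 and Mrto4 fell after 8 h of CX-5461 as deposited (14.3% of all genes), or all 3 with libraries centred (44.7%). Nmd3 (chr3:69721985-69756373, plus strand) registered 7.47, 7.46 and 7.20 in control, 7.27, 7.46 and 7.31 at 2 h, 6.61, 6.33 and 6.38 at 4 h and 6.24, 6.10 and 6.18 at 8 h of BMH-21. It registered 7.35, 7.06 and 7.21 at 2 h, 6.17, 6.51 and 6.30 at 4 h and 7.02, 6.93 and 6.88 at 8 h with CX-5461. The 2 h libraries overlapped the control and those of 4 h lay below it with either inhibitor. At 4 h the fall was 1.92-fold with BMH-21 and 2.08-fold with CX-5461 (log2 -0.94 and -1.05, adjusted p = 8.2e-14 and 3.2e-16). At 8 h it was -1.21 (adjusted p = 6e-20) and -0.44 (adjusted p = 0.00031).

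**Figure D3:**
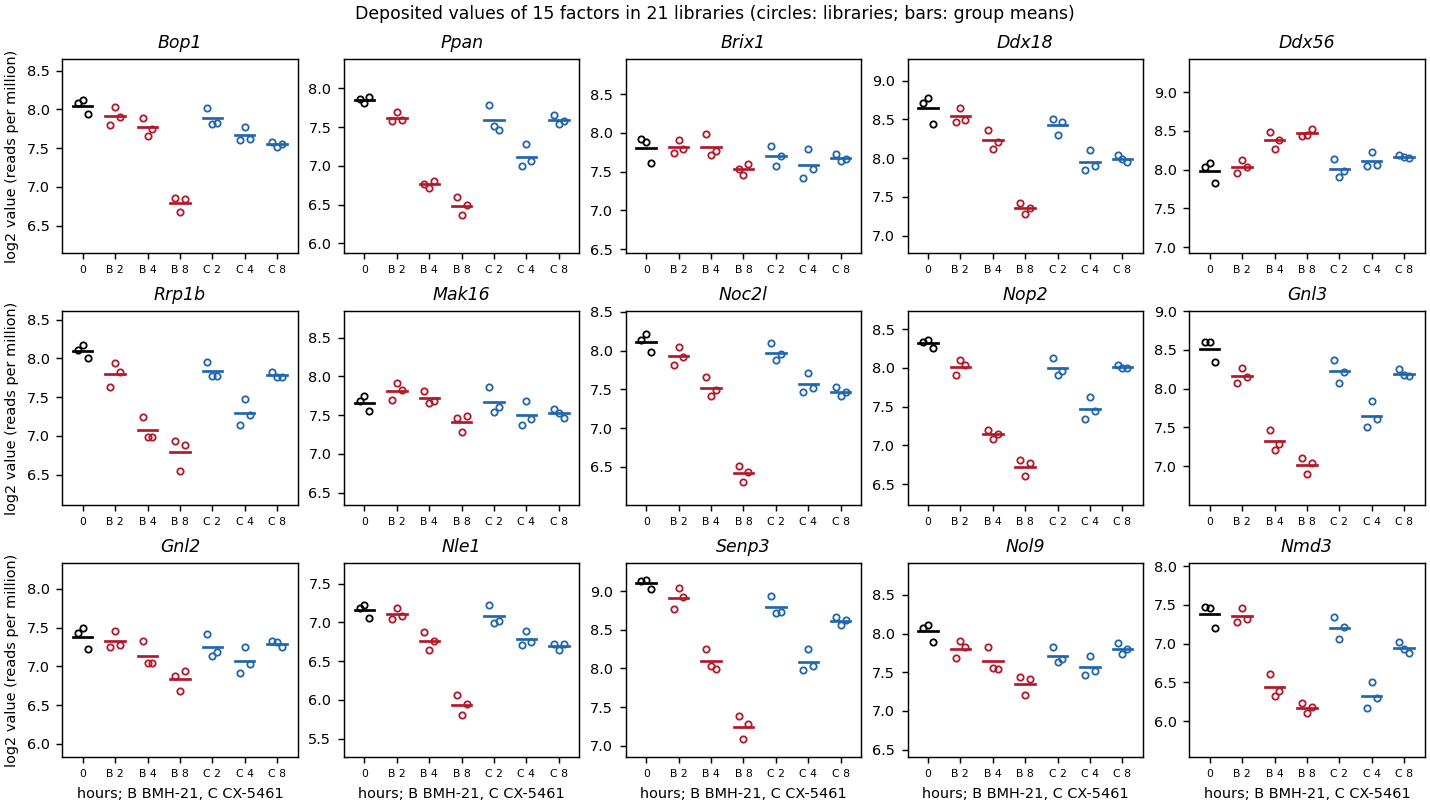
Deposited log2 values of the 15 factors described one by one, in each of the 21 libraries (circles) with group means (bars), by hours of BMH-21 (B, red) or CX-5461 (C, blue) and with the 0 h control in black. Every panel spans 2.5 log2 units. The BMH-21 8 h libraries lie below all others in 10 panels, overlap other treated libraries in those of Brix1, Mak16, Gnl2 and Nmd3, and in that of Ddx56 lie above the control.

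Not all factors fell at the same pace under BMH-21. With libraries centred, Surf6, Ppan, Gnl3, Rrp1b, Nmd3 and Nop2 had reached 98.7%, 81.5%, 80.9%, 79.6%, 79.5% and 74.2% of their 8 h change by 4 h, and the change of Rrs1 was -0.89 at 4 h and -0.80 at 8 h. Lyar, Ebna1bp2, Nop16, Pes1, Ddx54 and Bop1 had reached 0.273%, 3.2%, 4.77%, 7.21%, 8% and 12.5%. Such percentages depend on the scaling and on the spread between libraries. For Lyar the centred SD was 0.22 in control and 0.25 at 4 h, so its percentage is imprecise. As deposited its means were 8.02 in control, 7.87 at 4 h and 7.03 at 8 h. Between 4 and 8 h 43 of 47 factors fell with BMH-21 under both scalings, where 37.8% of all genes fell (42.2% centred). The 4 that did not were Rrs1, Surf6, Nip7 and Ddx56. None rose as deposited (18.6% of all genes), also at an unadjusted p under 0.05, and Ddx56 rose with libraries centred (28.3% of all genes). The median change from 4 to 8 h was -0.48 (-0.41 centred). These factors were picked for their values, so the percentages are a description.

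Under CX-5461 the course from 4 to 8 h depended on the scaling. As deposited, 26 factors rose and 0 fell (58.8% and 4.85% of all genes), with 0 lower at an unadjusted p under 0.05. With libraries centred 6 rose, Rrs1, Rrp1b, Nop2, Gnl3, Senp3 and Nmd3, and 25 fell (25.8% and 32.0% of all genes). Those 6 were also among the 26 that rose as deposited, and the count as deposited was 17 without CX-5461 4 h replicate 1. The deposited change minus the centred change was 0.37 here. Nmd3 rose most, by 0.62 (SE 0.11, adjusted p = 4e-07; centred 0.25, adjusted p = 5.2e-05), and Senp3 rose by 0.53 (centred 0.15, adjusted p = 3e-04). Bop1 had the lowest value, -0.12 as deposited (adjusted p = 0.31), and fell by 0.49 with libraries centred (adjusted p = 1.5e-11).

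The test of the difference between the 2 courses was added after the data had been seen. From 4 to 8 h 46 factors changed more in the downward direction with BMH-21 than with CX-5461 as deposited, against 61.4% of all genes, and 0 more upward (7.98%; 0 at an unadjusted p under 0.05). With libraries centred 34 did (36.2% of all genes), and Ddx56 differed upward (24.0% of all genes). Senp3 differed most, by -1.37 (SE 0.15, adjusted p = 2.1e-14), or -0.93 with libraries centred. Noc2l differed by -0.999 (-0.56 centred) and Nop2 by -0.96 (-0.53 centred).

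**Figure D4:**
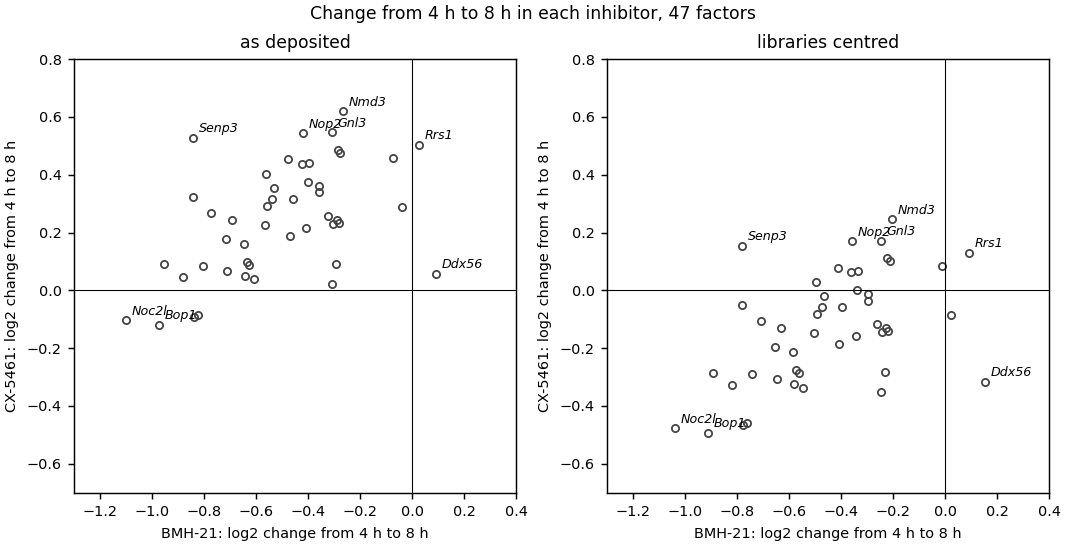
Log2 change from 4 to 8 h with CX-5461 (vertical) against that with BMH-21 (horizontal) for the 47 factors (circles), as deposited on the left and with libraries centred on the right. Most points lie left of 0 in both panels (43 fell with BMH-21), and the points move down by 0.37 on the vertical axis with centring, from 26 that rose with CX-5461 to 6. Ddx56 stands at the right edge.

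The inhibitors were also compared directly at the same dose and time. At 2 h 0 factors passed as deposited in the limma fit, with 1 higher and 0 lower at an unadjusted p under 0.05, where 2.47% of all genes were higher with BMH-21 and 1.52% lower. Without CX-5461 2 h replicate 1 the count was 1. After centring Pes1 and Noc3l were higher with BMH-21 (7.83% of genes) and Noc2l and Gnl3 lower (7.58% of genes). At 4 h Ddx18 and Nop16 were higher with BMH-21 and Ppan, Nop2 and Gnl3 lower (9.35% and 8.49% of genes). This count of 5 was 0 in a fit of only these 2 groups, 1 without BMH-21 4 h replicate 3, 3 without CX-5461 4 h replicate 3 and 9 without CX-5461 4 h replicate 2. With libraries centred 18 were higher and 6 lower (27.4% and 18.5% of genes), the 6 being Ppan, Rrs1, Rrp1b, Surf6, Nop2 and Gnl3. Senp3 did not differ at 4 h past the threshold, at 0.01 with a 95% interval of -0.20 to 0.21, nor did Nle1, at -0.02 with -0.23 to 0.19.

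At 8 h BMH-21 was below CX-5461 for 43 of 47 factors and above it for Ddx56, where 67.2% of all genes were lower and 12.0% higher. With libraries centred 37 were lower and 4, Ddx56, Mak16, Brix1 and Nip7, higher, against 40.6% and 31.1% of all genes. The groups did not overlap downward for 45 factors as deposited, as for 69.7% of all genes, and upward for Ddx56, as for 12.6%. Median differences were -0.72 over the factors and -0.48 over all genes as deposited, and -0.30 over the factors with libraries centred. The widest gaps were those of Senp3 (-1.37, SE 0.10, adjusted p = 6.6e-24; centred -0.94), Nop2 (-1.28; centred -0.86), Gnl3 (-1.18; centred -0.76) and Ppan (-1.11; centred -0.68). The direction turned with the scaling for 4 factors, Brix1, Mak16, Nip7 and Nsa2. The difference was -0.15 for Brix1 and -0.12 for Mak16 as deposited (95% intervals -0.36 to 0.06 and -0.32 to 0.09, neither passing), and 0.28 and 0.31 with libraries centred (adjusted p = 3.5e-06 and 5.4e-08). Nip7 went from -0.19 (95% interval -0.39 to 0.01) to 0.24 (adjusted p = 0.014), and Nsa2 from -0.40 (adjusted p = 0.00036) to 0.03 (adjusted p = 0.58). Gnl2 and Nol9 passed as deposited (-0.46 and -0.45) and not with libraries centred (-0.04, 95% interval -0.12 to 0.04, and -0.02, 95% interval -0.09 to 0.04).

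**Figure D5:**
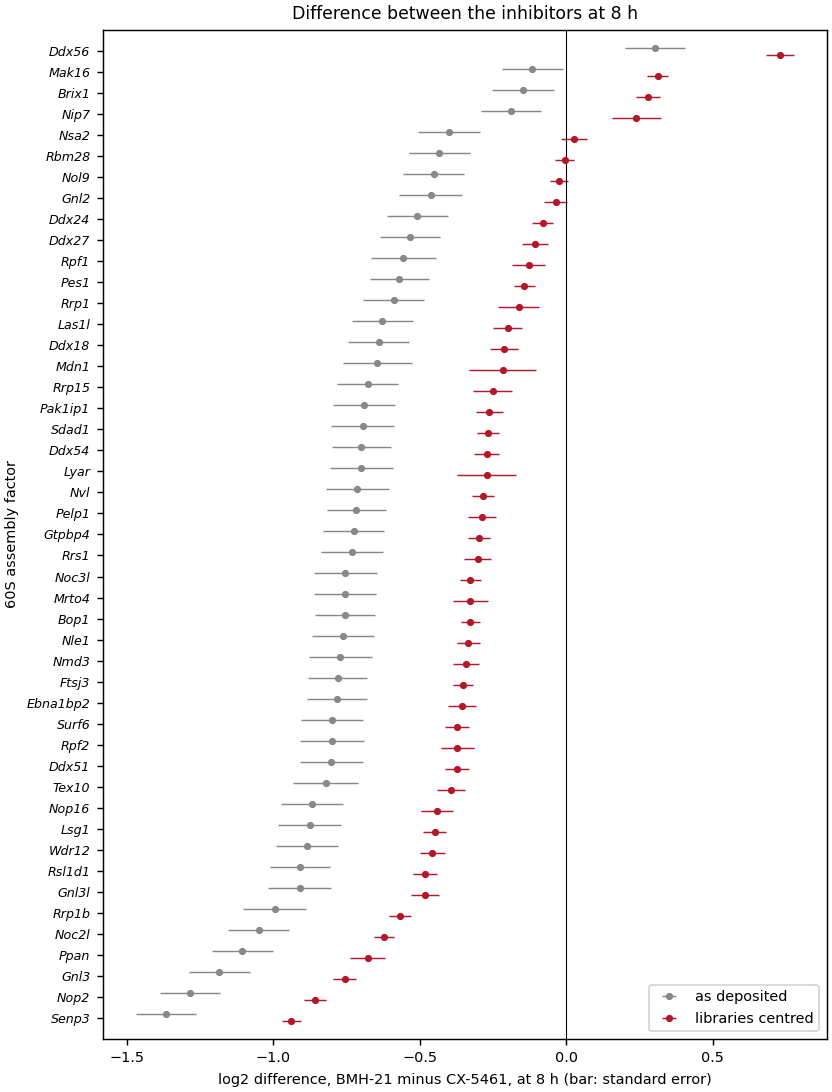
Log2 difference between BMH-21 and CX-5461 at 8 h for each of the 47 factors, with its standard error, as deposited (grey) and with libraries centred (red), ordered by the centred value. The red points lie 0.43 to the right of the grey ones, and after centring 5 lie above 0, of which Ddx56, Mak16, Brix1 and Nip7 passed the test and Nsa2 did not, while 37 factors passed as lower with BMH-21.

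A further list of 60S assembly genes outside the 47 was examined in the same fit, with 31 of its 36 symbols tested. It too was drawn up with earlier results of these data known, so it is no independent check. After 8 h of BMH-21 31 of 31 fell under both scalings (median -0.96, centred -0.75), where 56.9% of all genes fell (51.3% centred) and the median over all genes was -0.40 (-0.19 centred). After 8 h of CX-5461 14 fell as deposited (14.3% of all genes) and 31 with libraries centred (44.7%), with medians of -0.24 and -0.45 against 0.11 and -0.11 over all genes. After 4 h of CX-5461 29 fell (28 centred), where 51.2% of all genes did (45.7% centred). None rose at 8 h with either. Urb2, a scaffold of the early precursor, read 7.94, 7.97 and 7.81 in control, 6.47, 5.96 and 6.27 at 8 h of BMH-21 and 7.34, 7.30 and 7.32 at 8 h of CX-5461. Dusp12, the counterpart of the yeast factor that removes Mrto4 from the stalk, read 5.52, 5.47 and 5.31 in control, 3.92, 3.89 and 3.87 under BMH-21 and 4.90, 4.76 and 4.79 under CX-5461. Neither overlapped the control. Urb2 fell by 1.68 on the log2 scale with BMH-21 (adjusted p = 2.2e-29) and Dusp12 by 1.54 (adjusted p = 1.9e-26).

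Genes tied to the 5S particle and p53 were followed beside the factors. Rpl5, which carries the 5S RNA, read 10.86, 10.88 and 10.58 in control, 10.12, 10.18 and 10.11 at 8 h of BMH-21 and 10.68, 10.61 and 10.58 at 8 h of CX-5461, and its partner Rpl11 read 10.26, 10.27 and 9.98 in control, 9.54, 9.60 and 9.56 under BMH-21 and 10.08, 10.00 and 9.99 under CX-5461. Both fell with BMH-21 (-0.63 and -0.60, adjusted p = 5.2e-09 and 2.7e-08), and with CX-5461 they passed with libraries centred (-0.37 and -0.36) but not as deposited (-0.15 and -0.15). These ribosomal protein genes have near-identical pseudogene copies, so their values are uncertain. Mdm2, the ubiquitin ligase of p53 and itself a p53 target, rose from 7.15, 7.14 and 6.93 to 9.82, 9.60 and 9.94 with BMH-21 and to 8.85, 8.78 and 8.83 with CX-5461 at 8 h, by 2.71 and 1.75. Cdkn1a, the p21 cell cycle inhibitor, rose from 5.26, 5.32 and 5.11 to 7.66, 7.62 and 7.78 under BMH-21 and to 7.13, 7.02 and 7.15 under CX-5461, by 2.46 and 1.87. The mRNA of Trp53, the gene of p53, went from 9.70, 9.73 and 9.54 to 8.38, 8.15 and 8.30 under BMH-21 and to 9.03, 8.95 and 8.95 under CX-5461 and fell with both (-1.38 and -0.68, adjusted p = 1.3e-25 and 4.1e-09).

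In the MYC network Myc fell, and Mxd1 and Mxd4, which compete with MYC for Max, rose after 8 h of both inhibitors. Of 10 network genes 7 fell and 2 rose after 8 h of BMH-21 under both scalings, and 2 fell and 2 rose after 8 h of CX-5461 as deposited (7 and 2 with libraries centred). Among all tested genes 56.9% fell and 24.5% rose with BMH-21 as deposited (51.3% and 33.3% centred). With CX-5461 14.3% fell and 35.1% rose (44.7% and 29.3% centred). The falls in this short list were above those shares and the rises below them, which was not tested. Myc read 6.49, 6.50 and 6.32 in control, 5.99, 6.25 and 6.09 at 2 h, 5.93, 5.76 and 5.73 at 4 h and 4.93, 4.75 and 4.93 at 8 h of BMH-21, while its CX-5461 libraries held 6.14, 5.99 and 5.96 at 2 h, 5.78, 5.92 and 5.67 at 4 h and 6.15, 6.00 and 5.97 at 8 h. Its 8 h BMH-21 libraries were the lowest of all. Myc fell by 1.57 at 8 h of BMH-21 (adjusted p = 1.5e-27) and by 0.40 at 8 h of CX-5461 (adjusted p = 0.0011). Mxd1 rose from 2.76, 2.81 and 2.63 to 4.51, 4.22 and 4.64 with BMH-21 and to 3.93, 3.82 and 3.94 with CX-5461 at 8 h, by 1.72 and 1.16. Mxd4 rose from 1.34, 1.44 and 1.44 to 4.04, 3.82 and 4.12 under BMH-21 and to 3.78, 3.72 and 3.69 under CX-5461, by 2.59 and 2.32. Mxd3 fell from 3.20, 3.05 and 2.98 to 1.91, 1.69 and 1.69 with BMH-21 (-1.31), and was 3.20, 2.98 and 2.87 with CX-5461 (-0.06, adjusted p = 0.74, or -0.28 with adjusted p = 0.0048 centred). What these changes have to do with the assembly factors was not tested.

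Some values rest on shared sequence. In the GENCODE M21 annotation of the mm10 build, exons of 12 of the 47 factors (25.5%) overlap those of another protein-coding gene on the other strand, among them Bop1 with Mroh1, Noc2l with Samd11, Mak16 with Tti2, Gnl3 with Pbrm1, Gnl2 with Dnali1, Nle1 with Fndc8 and Rrp1b with Hsf2bp. The libraries were made with a directional kit, but whether the counting used the strand is not given in the sources used here, so these values are uncertain by the partner's reads.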

How the data were processed

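Poly(A) RNA libraries of 21 samples were made with a directional kit after DNase treatment, per the labels' protocols. The submitters' processing notes name Trim Galore 0.5.0, TopHat2 2.1.1, R 4.0.5, DESeq2 1.30.1, edgeR 3.32.1, limma 3.46.0 and the mm10 build, with no role or order. The counting program, annotation and filters are not given in the sources used here. The authors deposited 1 table of log2 expression for 20900 gene symbols, normalized with voom per its name. Whole reads were recovered from the values to within a relative deviation of 3.82e-14, with 0.5 reads added to each and a library size that differed from the total reads. Recovered totals were 46604397 to 62812641 reads per library. Samples were grouped by their titles, and 0 columns were left unmapped. Because the unit is log2, no count model was used.

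Replicates of a group differed beyond counting noise (chi-square per degree of freedom 2.76 to 31.3). All 21 were counted as separate samples, although such a spread does not show that they came from separate cultures. Group means were fitted in limma 3.58.1 (R 4.3.3) over all 7 groups, with a mean-variance trend, for the 14666 genes with log2 above 0 in at least 3 libraries; 6234 genes were set aside. Tests were two-sided, with Benjamini-Hochberg adjustment over all tested genes within each comparison and a threshold of 0.05. The prior had 111.512 degrees of freedom against 14 residual ones, and the own variance of 291 genes, Mdn1 among the factors, exceeded the moderated one more than 2 times. Fold changes are on the log2 scale with the offset of 0.5 reads. Alternatives were centred libraries, median-ratio size factors, no filter, a filter at log2 2, an offset of 5 reads, a robust prior, no trend, only the groups compared, a replicate block and leaving out each library. Per-library values are given for the factors with the largest change in each role group after 8 h of BMH-21 and, in groups of 5 or more, also the smallest; of the other 60S and MYC lists, the 2 largest rises and falls past the threshold are named. The members, the lists and the tests were chosen with earlier results of these data known. Exon overlaps and coordinates came from GENCODE M21, and promoter sequences from RefSeq (GRCm38.p6). Figures were drawn with matplotlib 3.10.9.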

Additional observations from a re-analysis of the deposited data

Results flagged for a closer look

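The change from 4 to 8 h differed between BMH-21 and CX-5461 for 10 of the factors described one by one, under both scalings. This was a test of the difference itself. Those 10 had been picked for the largest change in their role group after 8 h of BMH-21. That value enters the test, so the result is a description only. Among all tested genes 61.4% differed downward as deposited and 36.2% with libraries centred. Given as the change with BMH-21 minus that with CX-5461 on the log2 scale, as deposited and then with libraries centred, the differences were -1.37 and -0.93 for Senp3, -0.999 and -0.56 for Noc2l, and -0.96 and -0.53 for Nop2. Ddx18 differed by -0.93 and -0.49, and Nmd3 by -0.89 and -0.45. Bop1 differed by -0.86 and -0.42, as did Gnl3, also by -0.86 and -0.42. Rrp1b differed by -0.77 and -0.34, Ppan by -0.75 and -0.31, and Nle1 by -0.74 and -0.30. The groups held 3 libraries each, so single libraries were not tested as outliers. At 8 h of BMH-21 the chi-square per degree of freedom was 31.3 and 29.7 for replicate 2 against replicates 1 and 3. Between replicates 1 and 3 it was 5.64. Without that replicate 2 the median change of the factors at 8 h of BMH-21 was -0.98 as deposited.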

How the results depend on the processing

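With libraries centred, the counts of factors past the threshold were 19 for BMH-21 at 2 h (6 as deposited), and 4 and 24 for BMH-21 against CX-5461 at 2 and 4 h (0 and 5). Median-ratio size factors gave 17, 3 and 20 for these comparisons, and the replicate block with centring 18, 3 and 23. At 8 h of BMH-21 median-ratio factors gave 41 lower and 2 higher, Ddx56 and Mak16 (46 and 1 as deposited). From 4 to 8 h of BMH-21 they gave 41 lower and 3 higher, Rrs1, Ddx56 and Surf6 (43 and 0 as deposited). Without a trend CX-5461 at 2 h had 8 in place of 14, and with only the groups compared BMH-21 against CX-5461 at 4 h had 0. With 1 library left out the counts ran 0 to 6 for BMH-21 at 2 h, 2 to 21 for CX-5461 at 2 h, 0 to 1 and 1 to 9 for the inhibitors compared at 2 and 4 h, and 17 to 32 for CX-5461 from 4 to 8 h.

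With libraries centred, with or without the block, BMH-21 had a median change of -0.26 at 4 h and -0.82 at 8 h, and CX-5461 one of -0.027 at 2 h, -0.36 at 4 h and -0.53 at 8 h. It was -0.30 for the inhibitors compared at 8 h, -0.34 for the difference of the late changes, and, turned in sign, -0.13 for CX-5461 from 4 to 8 h. Median-ratio factors gave BMH-21 -0.23 at 4 h and -0.68 at 8 h, CX-5461 0.0091 (turned) at 2 h and -0.27 at 4 h, -0.25 for the inhibitors at 8 h, -0.30 for BMH-21 from 4 to 8 h, -0.24 for the difference of the late changes and -0.12 (turned) for CX-5461 from 4 to 8 h.

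Over all 47 factors centring turned the sign of 30 changes of CX-5461 from 4 to 8 h, 9, 4 and 0 of BMH-21 at 2, 4 and 8 h, 12, 1 and 3 of CX-5461 at those times, 11, 2 and 4 between the inhibitors and 3 in the late difference. Among the factors described one by one, in the comparisons at 4 and 8 h with control, between the inhibitors at 8 h and in the late difference, these turned with centring, with or without the block: Ddx56 at 8 h of CX-5461 (-0.032), Brix1 and Mak16 between the inhibitors at 8 h (0.28 and 0.31) and in the late difference (0.051 and 0.11). With median-ratio factors Brix1 and Mak16 turned at 8 h of BMH-21 (0.084 and 0.10, the latter passing as a rise), at 4 h of CX-5461 (0.032 and 0.089, the latter again passing), between the inhibitors at 8 h (0.32 and 0.36) and in the late difference (0.15 and 0.21). Gnl2 and Nol9 turned between the inhibitors (0.0094 and 0.020) and in the late difference (0.0041 and 0.0088). Brix1 at 4 h of BMH-21 was -0.061 without BMH-21 4 h replicate 1 and -0.077 without control replicate 3, and up to 0.079 without others. Ddx56 in the late difference was -0.022 without BMH-21 4 h replicate 2 and -0.027 without CX-5461 4 h replicate 2, and up to 0.087 without others. The cause was not tested for any of these.

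Deviations of same-numbered replicates correlated at -0.25 to 0.093 over 11 comparisons, and those of differently numbered ones at -0.26 to 0.38. The main fit therefore used no pairing. Such correlations cannot show whether same-numbered libraries shared a culture or batch. With a replicate block BMH-21 had counts of 5, 36 and 47 and CX-5461 of 13, 40 and 28 at the 3 times, and no named call changed. The other filters, the offset of 5 reads and the robust prior moved no count by over 1.5 times and turned no factor named.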
